A study of Mus musculus with 57 samples.

Results

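The genes described here are those whose response to neuregulin 1 (NRG1) differed between mouse salivary end buds titled E13 and end buds titled E14. The measure is the interaction, that is, the NRG1 effect in E14 buds (NRG1 minus control, log2) minus the NRG1 effect in E13 buds, computed for every gene of the end bud count table from 11 of the 57 libraries of the series. Of 35275 genes in that table, 16180 passed the filter on low counts and were tested, and 367 were called at an adjusted p under 0.05. A value below 0, written "lower", means that the NRG1 effect was smaller or more negative at E14, and a value above 0, written "higher", that it was larger or less negative.

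The study profiled embryonic salivary tissue by RNA sequencing across development, under NRG1, under an mTOR inhibitor and in Erbb3 knockout (KO) glands. All 11 end bud libraries were wild-type salivary gland epithelium. The 4 groups were 3 untreated control and 3 NRG1-treated libraries titled E13, and 2 untreated control and 3 NRG1-treated libraries titled E14. The stage label of 10 of them reads E13 plus 4 h and that of E14 NRG1 C reads E13 plus 72 h, so E13 and E14 stand here for the titles, and the titles and stage labels of the E14 libraries do not match. A difference of age and any other difference between the 2 sets of buds cannot be told apart. The number of animals pooled in a library was not found in those labels.

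NRG1 is a growth factor of the epidermal growth factor family. It binds the receptor ERBB3, which lacks strong kinase activity of its own and signals in a pair with ERBB2, mainly through the PI3K-AKT-mTOR and the RAS-ERK routes. ERK signalling induces immediate early genes, the PEA3 transcription factors Etv1, Etv4 and Etv5, and inhibitors of the same route such as the Sprouty, SPRED and dual-specificity phosphatase genes. In the branching salivary gland the end buds hold the progenitors of the secretory acini, and fibroblast growth factors, ERBB ligands and acetylcholine from the parasympathetic nerve are known to act on them.

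Total counts were 16027377 to 26306020 per library. The summed level of 9 epithelial markers was 3375 to 4192 CPM (counts scaled to a common library total) over all 11 libraries. The summed level of 12 mesenchyme markers was 688.7 to 1069 CPM in the E13 libraries, 6329 and 2266 CPM in E14 controls B and C, and 4707 to 5860 CPM in E14 NRG1 libraries. The 8 erythroid markers summed to 9.22 to 32.9 CPM at E13, to 653.5 and 137.8 CPM in E14 controls B and C, and to 601.3 to 662.6 CPM with NRG1 at E14, and the 9 endothelium markers to 7.56 to 24.4 CPM at E13 and 208.9 to 338.3 CPM at E14. E14 control C therefore held less RNA of mesenchyme and blood markers than the other E14 libraries, and none of the tested members of the epithelium, mesenchyme, endothelium, erythroid, macrophage, neuron, Schwann or muscle marker lists was called in the interaction. In bulk tissue, fewer cells of a type and less RNA per cell cannot be told apart.

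NRG1 raised fewer of these genes in E14 buds than it did in E13 buds, and most of the called genes already stood at a different level in the E14 controls. Both statements only describe genes that the interaction chose. The interaction was lower for 248 genes (1.53% of those tested) and higher for 119 genes (0.735%). Leaving out 1 library moved the number of lower genes to between 97 (without E13 NRG1 B) and 487 (without E14 control B). It was also over 1.5 times from the full count without E13 control B (156), E13 NRG1 A (149), E13 NRG1 C (130), E14 control C (393) or E14 NRG1 B (111). The number of higher genes became 65 without E13 control A, 73 without E13 control B, 43 without E13 NRG1 B, 46 without E13 NRG1 C, 597 without E14 control B, 56 without E14 NRG1 B and 76 without E14 NRG1 C. That library is the one labelled 72 h, and without it 199 genes were called lower. No gene called in the full fit changed sign in any of these fits.

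Among the 248 lower genes, 97 rose with NRG1 in both sets of buds, 102 rose at E13 and were not called at E14, and 16 rose at E13 and fell at E14. Another 26 were not called at E13 and fell at E14, and 7 fell in both. Over all genes, 23.1% were called higher and 19.3% lower with NRG1 at E13, and 20.2% and 16% at E14. Since the interaction chose these genes, their states within each title are a description. Their median NRG1 effect was 0.80 at E13 and 0.13 at E14 on the log2 scale, against -0.02 and 0.02 over all tested genes.

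Read the other way, across titles, 184 of the 248 lower genes were higher in E14 than in E13 controls, where 14.4% of all genes were called higher, and 97 were lower in E14 than in E13 NRG1 buds, where 11.7% were. The difference between controls was larger than the difference between NRG1 libraries for 171 of them. The NRG1-minus-control difference in CPM was also smaller or more negative at E14 for 243 of the 248 genes. Ccnd1 and Kcnn4, described below, were among the other 5. For the 119 higher genes, 85 were lower in E14 than in E13 controls (9.2% of all genes) and 54 were higher in E14 than in E13 NRG1 buds (14.7% of all genes), and the difference in CPM was larger at E14 for all 119. The interaction chose these genes from the same libraries, so the counts across titles are a description too. They are not an enrichment over all genes.

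**Figure D1:**
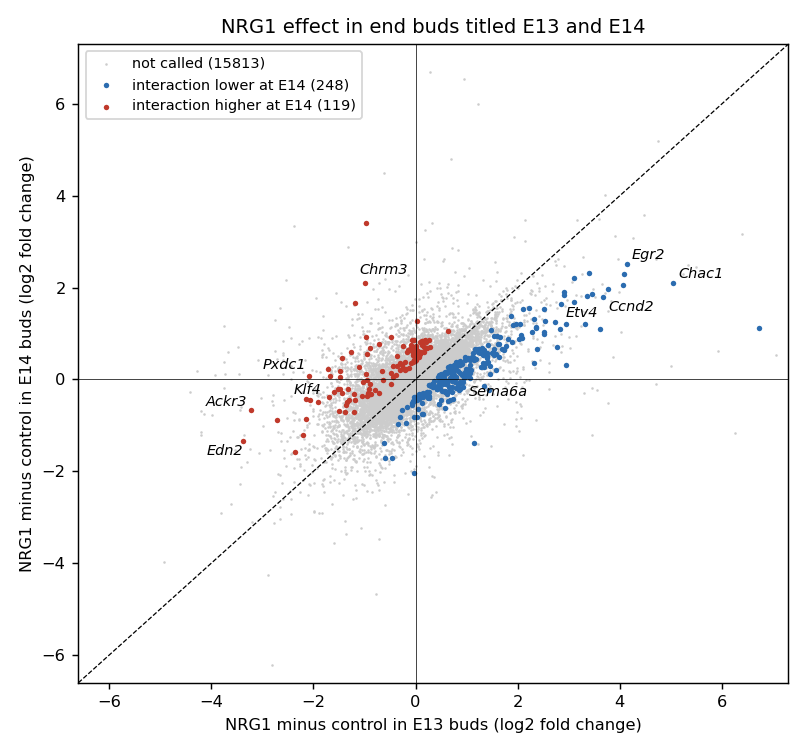
The log2 NRG1 effect in E13 buds (x axis) is plotted against that in E14 buds (y axis) for 16180 genes, with 248 genes of lower interaction in blue, 119 of higher interaction in red and the line of equal effect dashed. Most blue genes lie to the right of 0 and below the line, and Chac1, Egr2, Ccnd2 and Etv4 rose at both titles but less at E14.

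**Figure D2:**
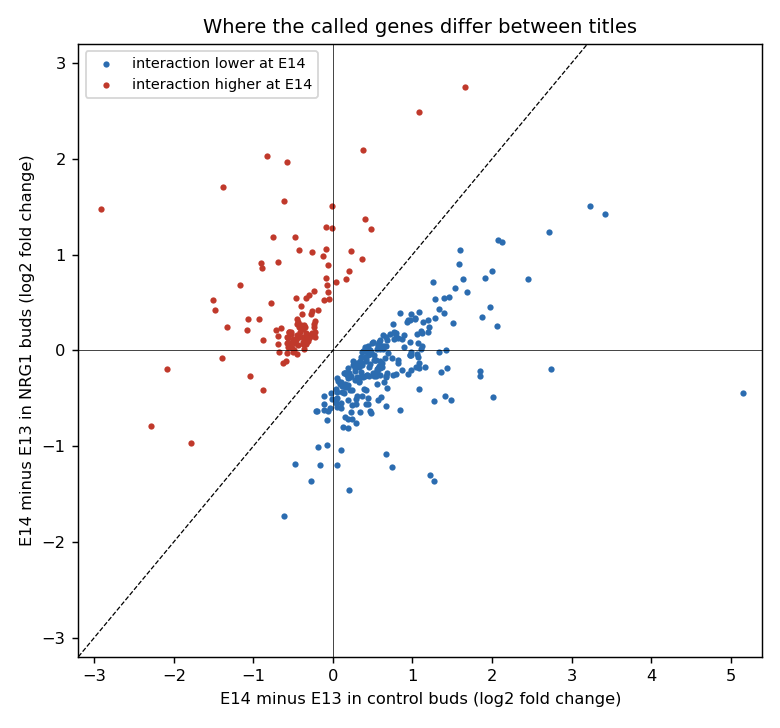
For the 367 called genes, the log2 difference between E14 and E13 in control buds (x axis) is plotted against that in NRG1 buds (y axis), with lower genes in blue and higher genes in red. Of the blue genes 184 were called higher in E14 controls and of the red genes 85 were called lower there.

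Among the PEA3 factors and the ERK feedback genes, the genes called all responded less at E14. Etv4 (ENSMUSG00000017724, GRCm38 chr11:101769742-101785371) measured 21.3, 21.8 and 25.1 CPM in E13 controls, 167, 157 and 164 CPM in E13 NRG1 buds, 46.1 and 41.4 CPM in E14 controls, and 140, 139 and 134 CPM in E14 NRG1 buds. The 4 groups did not overlap, with E14 controls above E13 controls and E14 NRG1 buds below E13 NRG1 buds. The log2 effect was 2.84 at E13 and 1.65 at E14, an interaction of -1.19 (SE 0.10, edgeR adjusted p = 0.0001), and Etv4 remained called in every alternative fit. Etv5 and Etv1 had larger but less precise values, -3.22 (SE 0.70, edgeR adjusted p = 0.0704) and -2.08 (SE 0.47, edgeR adjusted p = 0.0584), and were not called. For Etv5 the E14 controls B and C differed from each other, at 72 and 17.1 CPM, while the E13 controls measured 5.53, 3.25 and 7.2 CPM, and without either E14 control all 3 factors were called lower.

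Of 20 ERK feedback genes, 3 were called lower and none higher, against 1.53% and 0.735% of all tested genes. The list median was -0.29 against 0.01 over all tested genes. Values were below 0 for 13 of the 20. Dusp10 and Dusp1, phosphatase genes of the list, were among those above 0 and were not called (0.83, SE 0.38, and 0.50, SE 0.21). Spry2, a Sprouty inhibitor of receptor tyrosine kinase signalling, measured 18.4, 19.1 and 15.7 CPM in E13 controls, 101, 97.9 and 103 CPM in E13 NRG1 buds, 47.4 and 27.6 CPM in E14 controls and 74.7, 77.5 and 75.9 CPM in E14 NRG1 buds. Its interaction was -1.48 (SE 0.23, edgeR adjusted p = 0.00874). Spred2, a membrane inhibitor of RAS-ERK signalling, rose from 48.2, 45.6 and 52.2 CPM to 130, 127 and 122 CPM at E13, and from 109 and 82.3 CPM to 133, 115 and 120 CPM at E14. The E14 NRG1 libraries thus reached about the E13 NRG1 level from a higher start, and the interaction was -1.02 (SE 0.14, edgeR adjusted p = 0.00264). Its relative Spred1 had an interaction of -0.74 (SE 0.15, edgeR adjusted p = 0.0246), a call lost without E13 control A or B, E13 NRG1 B or C, or E14 NRG1 B. Dusp6, the phosphatase that inactivates ERK, had -3.05 (SE 0.61, edgeR adjusted p = 0.0546) and was not called, with E14 controls at 62.5 and 17 CPM. Between 2 and 7 genes of the list were called lower when 1 library was left out, 6 without E14 control B and 7 without E14 control C.

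Of 24 immediate early genes, 4 were called lower (Egr1, Egr2, Nr4a1 and Myc) and 2 higher (Klf4 and Klf2). Over all genes the shares called were 1.53% and 0.735%, and the list median was 0.06. Egr2, a zinc-finger transcription factor, measured 5.17, 3.55 and 3.92 CPM in E13 controls, 75.9, 72.4 and 76.4 CPM in E13 NRG1 buds, 10.4 and 12.6 CPM in E14 controls and 73.5, 59.7 and 64.2 CPM in E14 NRG1 buds. The NRG1 libraries of the 2 titles overlapped and the controls did not, and the interaction was -1.62 (SE 0.18, edgeR adjusted p = 0.000689). Egr1 had the same arrangement, with 17 to 21.4 CPM in E13 controls, 45.6 and 39 CPM in E14 controls and 195 to 224 CPM in all NRG1 libraries (interaction -1.10, SE 0.13, edgeR adjusted p = 0.000753). Nr4a1, an orphan nuclear receptor induced by many stimuli, had 16 to 19.6 CPM in E13 controls against 40.6 and 37.7 CPM in E14 controls, and 61.7 to 66.3 CPM against 68.9 to 76.8 CPM with NRG1 (interaction -0.94, SE 0.12, edgeR adjusted p = 0.0015). Myc was called lower at -1.59 (SE 0.32, edgeR adjusted p = 0.042) and lost its call in each fit that left out a library other than an E14 control. Klf2, a Krüppel-like factor like Klf4, was called higher at 1.11 (SE 0.26, edgeR adjusted p = 0.0372), a call lost without E13 control A or B, any E13 NRG1 library, E14 control C or E14 NRG1 A or C.

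Klf4, a zinc-finger factor of differentiating epithelia, moved the opposite way. It measured 94.2, 93 and 94.4 CPM in E13 controls, 28.7, 30.9 and 33.9 CPM in E13 NRG1 buds, 35.4 and 36.1 CPM in E14 controls and 25.8, 30.8 and 32.2 CPM in E14 NRG1 buds. The E14 controls lay just above the NRG1 libraries of both titles and far below the E13 controls. NRG1 therefore lowered Klf4 by 1.59 at E13 and by 0.27 at E14 on the log2 scale (interaction 1.32, SE 0.13, edgeR adjusted p = 0.000193), a call kept in every alternative fit. In freshly dissected glands, which are separate samples, Klf4 also fell from E13 to E14 (log2 -0.65, edgeR adjusted p = 0.013).

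**Figure D3:**
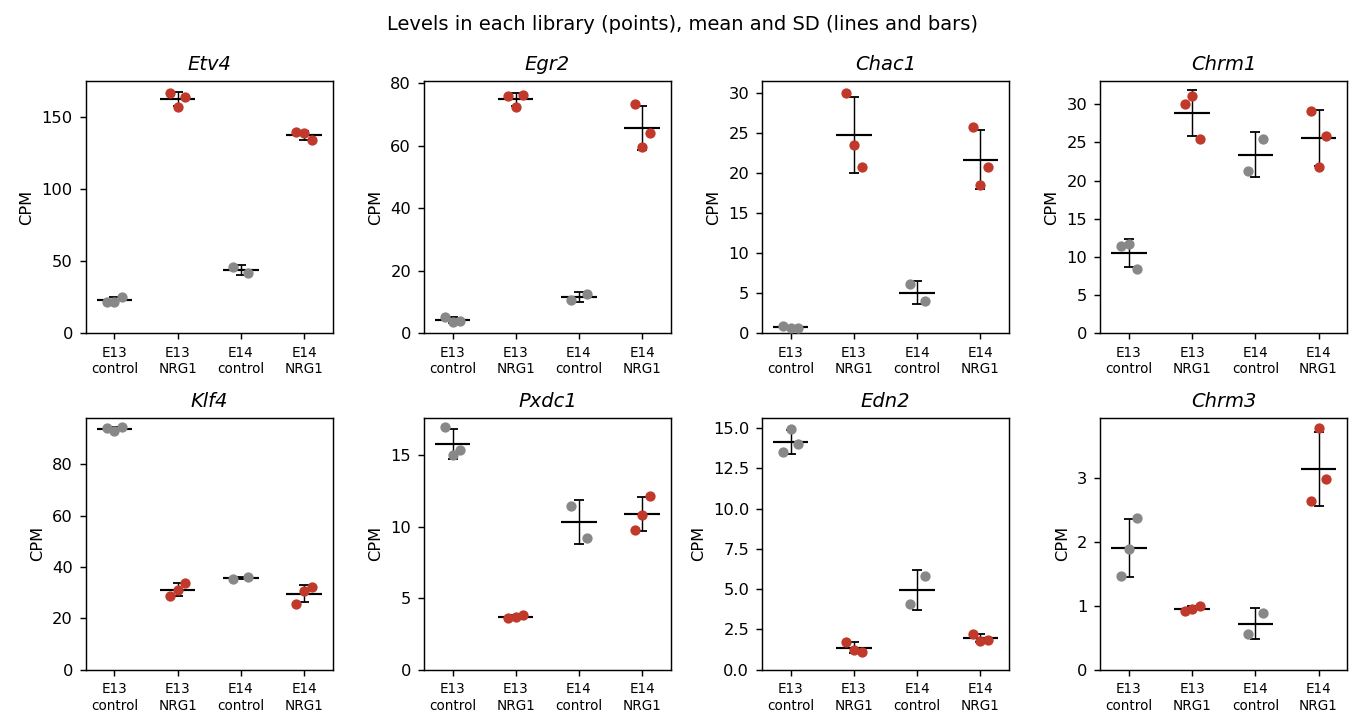
Levels in CPM (y axis, from 0) in each library of the 4 groups, controls in grey and NRG1 libraries in red, with the group mean and SD, for 4 genes of lower interaction (top row) and 4 of higher interaction (bottom row). The E14 controls lie above the E13 controls for Etv4, Egr2, Chac1 and Chrm1 and below them for Klf4, Pxdc1, Edn2 and Chrm3.

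Of 28 ATF4 and amino acid genes, 25 were raised by NRG1 at E13 and 24 at E14, against 23.1% and 20.2% of all genes. In the interaction 5 were called lower (Chac1, Slc7a1, Trib3, Aars and Slc7a5) and none higher, against 1.53% and 0.735% of all genes. ATF4 is the transcription factor of the integrated stress response that drives amino acid import and tRNA charging. Chac1, an enzyme that degrades glutathione, had 0.936, 0.65 and 0.633 CPM in E13 controls, 30, 23.5 and 20.7 CPM in E13 NRG1 buds, 6.11 and 4.01 CPM in E14 controls and 25.8, 18.5 and 20.7 CPM in E14 NRG1 buds, with 11 to 23 counts in the E13 controls. With NRG1 the titles overlapped and without it they did not, and the interaction was -2.93 (SE 0.34, edgeR adjusted p = 0.000916). Trib3, a pseudokinase, had 2.14 to 2.81 CPM in E13 controls, 13.5 and 7.07 CPM in E14 controls and 31.7 to 40.6 CPM in all NRG1 libraries (interaction -1.80, SE 0.27, edgeR adjusted p = 0.00529). Slc7a1, a carrier of arginine and lysine, rose from 27.9, 29.1 and 25.9 CPM to 213, 216 and 196 CPM at E13 and from 52.2 and 41.3 CPM to 166, 175 and 182 CPM at E14 (interaction -1.01, SE 0.12, edgeR adjusted p = 0.00113). Aars, the alanyl-tRNA synthetase, had -0.49 (SE 0.10, edgeR adjusted p = 0.0173) and lost its call without E13 control B or E13 NRG1 B. Atf4 itself was not called (-0.15, SE 0.11, edgeR adjusted p = 0.577). Slc7a5, a carrier of large neutral amino acids, had -0.91 (SE 0.20, edgeR adjusted p = 0.0409), and its call was lost without E13 control B, any E13 NRG1 library or E14 NRG1 B or C. Between 3 and 7 of the list were called lower when 1 library was left out, 3 of them without E13 control B or E13 NRG1 B and 7 without E14 control C.

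The 250 bases before 1 RefSeq start of Chac1 and of Nr4a1, the latter inside the gene as GENCODE annotates it, are shown because these windows hold 2 motif classes known for stress-response and immediate early genes, the composite element TGATGNAA bound by ATF4 and the half-site TGACG bound by CREB and ATF factors. Capitals mark the matches on either strand. The sequences are from RefSeq on GRCm38.p6, both from the plus strand.
Chac1, chr2:119350992-119351241: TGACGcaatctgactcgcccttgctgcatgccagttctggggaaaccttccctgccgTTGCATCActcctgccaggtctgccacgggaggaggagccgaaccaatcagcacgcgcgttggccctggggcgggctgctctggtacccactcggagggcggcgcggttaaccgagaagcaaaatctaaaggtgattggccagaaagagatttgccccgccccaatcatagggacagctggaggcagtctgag
Nr4a1, chr15:101266596-101266845: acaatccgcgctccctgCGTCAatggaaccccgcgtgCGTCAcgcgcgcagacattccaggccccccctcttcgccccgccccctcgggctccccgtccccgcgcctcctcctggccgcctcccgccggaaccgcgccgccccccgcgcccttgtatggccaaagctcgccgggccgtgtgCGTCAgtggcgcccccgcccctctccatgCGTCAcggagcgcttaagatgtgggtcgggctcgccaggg
Chac1 held 1 composite element and 1 half-site, and Nr4a1 held 4 half-sites. Windows not shown differed. Trib3, also of the ATF4 list, held 2 half-sites and no composite element, and Klf4, of the higher set, held a half-site as well. RefSeq promoters were matched by symbol for 185 of the 248 lower genes (265 promoters) and for 83 of the 119 higher genes (102 promoters). The half-site TGACG stood in 17.7% of the promoters of lower genes and 34.3% of those of higher genes, against 17.8% of all 32851 promoters, and TGATGNAA in 4.15% and 1.96% against 3.45%. The AP-1 motif TGANTCA was present in 3.77% and 8.82% against 6.75%, the ETS motif AGGAAGT in 1.89% and 7.84% against 7.69%, the FOXO motif TGTTTAC in 1.89% and 0% against 3.17%, and the E-box CACGTG in 10.2% and 11.8% against 6.02%. Both strands were searched, a promoter was counted once for each motif, matches of different motifs may overlap, and a match is a description of letters only.

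Cell cycle and progenitor genes were lower where they were called, apart from 1 inhibitor. Ccnd2, a D-type cyclin that drives G1 progression, measured 46.9, 38.2 and 62.7 CPM in E13 controls, 676, 629 and 582 CPM in E13 NRG1 buds, 154 and 108 CPM in E14 controls and 411, 474 and 470 CPM in E14 NRG1 buds. The groups did not overlap, and the range between control and NRG1 was narrower from both ends at E14 (interaction -1.88, SE 0.27, edgeR adjusted p = 0.00915). The Ccnd2 call was lost when replicate letters were fitted as a block within each title. Ccnd1, the other D-type cyclin called, had 40 to 42.2 CPM in E13 controls, 191 and 112 CPM in E14 controls, 410 to 436 CPM in E13 NRG1 buds and 489 to 616 CPM in E14 NRG1 buds (interaction -1.52, SE 0.25, edgeR adjusted p = 0.0164, a call lost without E14 NRG1 B). Of 28 cell cycle genes only these 2 were called lower and 1 higher (1.53% and 0.735% of all genes). The higher gene was Cdkn1c, the cyclin-dependent kinase inhibitor p57, at 0.61 (SE 0.15, edgeR adjusted p = 0.049). The Cdkn1c call rests close to the threshold and remained only without E13 control C or without E14 control B among the fits that left out 1 library.

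Of 16 end bud progenitor genes, 5 were called lower and none higher (1.53% and 0.735% of all genes), with a median of -0.23. Id3 and Id1, inhibitors of basic helix-loop-helix factors on the same list, had values above 0 and were not called (2.18, SE 0.51, edgeR adjusted p = 0.0845, and 2.12, SE 0.53, edgeR adjusted p = 0.0996), and 2 of the list were called higher without E14 NRG1 A and 1 without E14 control C. Sox9, a factor required for end bud progenitors, measured 149, 137 and 167 CPM in E13 controls, 244, 242 and 258 CPM in E13 NRG1 buds, 201 and 204 CPM in E14 controls and 198, 211 and 215 CPM in E14 NRG1 buds. Sox9 was raised at E13 and not called at E14, where the groups overlapped (interaction -0.68, SE 0.11, edgeR adjusted p = 0.005). Pax9, a paired-box factor of pharyngeal and oral epithelia, rose with NRG1 at E13 from 140 to 163 CPM to 230 to 236 CPM and fell at E14 from 210 and 257 CPM to 187, 194 and 202 CPM (interaction -0.84, SE 0.12, edgeR adjusted p = 0.0027). Kit, the stem cell factor receptor that marks the distal end bud, was raised at E13 from 27.1 to 30.9 CPM to 47.6 to 50.4 CPM and not called at E14, with 95.2 and 82.7 CPM in controls and 99.7 to 103 CPM with NRG1 (interaction -0.55, SE 0.10, edgeR adjusted p = 0.0137). Its call was lost without E13 NRG1 B. The fifth, beside Ccnd1, was the transcription factor gene Myb at -1.04 (SE 0.20, edgeR adjusted p = 0.0141).

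Genes of the secretory acinar cell split, and the muscarinic acetylcholine receptors did so as a pair. Chrm1, the M1 receptor, measured 11.4, 11.7 and 8.43 CPM in E13 controls, 30.1, 31.1 and 25.4 CPM in E13 NRG1 buds, 21.3 and 25.5 CPM in E14 controls and 29.1, 21.9 and 25.9 CPM in E14 NRG1 buds. The E13 controls stood below every other library, and the E14 controls overlapped the NRG1 libraries (interaction -1.33, SE 0.21, edgeR adjusted p = 0.00533). Chrm3, the M3 receptor that mediates most of the fluid secretion in the adult gland, measured 1.46, 1.89 and 2.38 CPM in E13 controls, 0.922, 0.953 and 0.993 CPM in E13 NRG1 buds, 0.556 and 0.891 CPM in E14 controls and 2.65, 3.78 and 2.99 CPM in E14 NRG1 buds. NRG1 thus lowered Chrm3 at E13 (log2 -0.99) and raised it at E14 (log2 2.10), an interaction of 3.09 (SE 0.46, edgeR adjusted p = 0.00402), on 9 to 85 counts per library. Both receptor calls held in every alternative fit. Slc12a2, the sodium-potassium-chloride cotransporter that loads acinar cells with chloride, rose from 127, 110 and 137 CPM to 956, 919 and 948 CPM at E13 and from 231 and 168 CPM to 664, 758 and 724 CPM at E14 (interaction -1.07, SE 0.16, edgeR adjusted p = 0.005). Of 17 tested acinar genes 3 were called lower and 1 higher (1.53% and 0.735% of all genes). The third lower gene was the potassium channel gene Kcnn4 (-2.00, SE 0.41, edgeR adjusted p = 0.0331), which lost its call without any 1 of the 6 E13 libraries or E14 NRG1 B. Aqp5, the acinar water channel, was not called (-0.35, SE 0.44, edgeR adjusted p = 0.764).

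The receptors of the chemokine CXCL12 also split. Cxcr4, which signals, measured 2.89, 2.01 and 3.52 CPM in E13 controls, 14.9, 14.7 and 14.8 CPM in E13 NRG1 buds, 20.2 and 11.4 CPM in E14 controls and 26.1, 27.2 and 21.2 CPM in E14 NRG1 buds (interaction -1.72, SE 0.31, edgeR adjusted p = 0.0141). Ackr3, which takes up and removes the chemokine, measured 8.22, 12 and 14.1 CPM in E13 controls, 1.3, 1.1 and 1.29 CPM in E13 NRG1 buds, 8.27 and 7.07 CPM in E14 controls and 5.62, 3.6 and 5.22 CPM in E14 NRG1 buds. The controls of the 2 titles overlapped for Ackr3, the E14 NRG1 libraries lay above the E13 NRG1 libraries, and the interaction was 2.54 (SE 0.35, edgeR adjusted p = 0.0027). The endothelium and mesenchyme sums given above were higher in every E14 library than in every E13 library. In E14 controls B and C the endothelium markers summed to 338.3 and 208.9 CPM and the mesenchyme markers to 6329 and 2266 CPM. The part of these cell types in the Cxcr4 and Ackr3 levels was not tested. Edn2, an endothelin ligand, fell from 13.5, 14.9 and 14 CPM to 1.74, 1.24 and 1.09 CPM at E13 and from 4.08 and 5.85 CPM to 2.24, 1.78 and 1.84 CPM at E14. Its E14 controls stood between the E13 controls and the NRG1 libraries (interaction 2.04, SE 0.31, edgeR adjusted p = 0.00477). These were the members called among 21 tested chemokine, endothelin and cytokine genes, 1 lower and 2 higher (1.53% and 0.735% of all genes).

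Other genes that NRG1 lowered at E13 were lowered less, or not at all, at E14. Pxdc1, which encodes a PX domain protein, measured 17, 15 and 15.4 CPM in E13 controls, 3.64, 3.67 and 3.82 CPM in E13 NRG1 buds, 11.4 and 9.24 CPM in E14 controls and 9.77, 10.8 and 12.2 CPM in E14 NRG1 buds. The E14 groups overlapped while the E13 groups were far apart (interaction 2.17, SE 0.21, edgeR adjusted p = 0.000165). Dab2, an endocytic adaptor, fell from 47.9, 48.2 and 59 CPM to 10.7, 12.8 and 13.5 CPM at E13 and from 35.7 and 28.2 CPM to 19.9, 25.1 and 25.3 CPM at E14 (interaction 1.62, SE 0.20, edgeR adjusted p = 0.00122). Among 26 TGF-beta and BMP genes 2 ligands were called higher and none lower (0.735% and 1.53% of all genes), with a list median of 0.60. Tgfb2 fell from 98.2, 90.5 and 110 CPM to 20, 19.9 and 18.7 CPM at E13 and from 44.4 and 52.2 CPM to 16.7, 15.3 and 16.6 CPM at E14 (interaction 0.77, SE 0.13, edgeR adjusted p = 0.00767). Tgfb3 had 1.29 (SE 0.24, edgeR adjusted p = 0.0187) and lost its call without E13 NRG1 B or C, E14 control C or E14 NRG1 B, and 4 of the list were called higher without E14 control B or E14 NRG1 A. Mesenchyme markers moved in the same direction as this list, with all 12 above 0 and a median of 0.43, none called, and E14 control C had the lower mesenchyme sum given above; their part in these values was not tested. Among 20 FOXO and growth brake genes only the transcriptional co-regulator Cited2 was called, higher at 0.67 (SE 0.12, edgeR adjusted p = 0.0115), where 0.735% of all genes were called higher.

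Metabolic and adhesion genes added a few calls. Vegfa, the endothelial growth factor, measured 18.6, 20.4 and 18.2 CPM in E13 controls, 97, 89.3 and 106 CPM in E13 NRG1 buds, 57.5 and 51.2 CPM in E14 controls and 140, 106 and 110 CPM in E14 NRG1 buds (interaction -1.23, SE 0.16, edgeR adjusted p = 0.00166). Pfkfb3, which makes the activator of glycolysis fructose 2,6-bisphosphate, was the other called member of 28 glycolysis and hypoxia genes (-2.07, SE 0.32, edgeR adjusted p = 0.005), and 6 of the list were called lower without E14 NRG1 A. Over all genes 1.53% were called lower in the full fit. Sema6a, a transmembrane semaphorin, is an example of a gene raised at E13 and not called at E14, with 171, 178 and 156 CPM in E13 controls, 323, 330 and 312 CPM in E13 NRG1 buds, 192 and 191 CPM in E14 controls and 181, 188 and 182 CPM in E14 NRG1 buds. Here the controls of the 2 titles differed little and the NRG1 libraries were apart (interaction -1.0, SE 0.09, edgeR adjusted p = 0.0001). Trpv6, an epithelial calcium channel, rose from 25.6, 19.7 and 23.1 CPM to 147, 153 and 156 CPM at E13 and from 43.9 and 38.3 CPM to 96, 106 and 93.9 CPM at E14 (interaction -1.47, SE 0.13, edgeR adjusted p = 0.0001). Among the matrix and invasion genes Itga2, an integrin subunit that binds collagen, was called lower (-1.21, SE 0.22, edgeR adjusted p = 0.0111). This call too was lost when replicate letters were fitted as a block within each title.

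Most sterol and ribosome biogenesis genes were raised by NRG1 at both titles. Of 31 sterol and lipid genes, 29 rose at E13 and 28 at E14, against 23.1% and 20.2% of all genes. None was called in the interaction, in which 1.53% of all genes were called lower and 0.735% higher. Of 24 ribosome biogenesis genes, 21 rose at each title and only Rrs1 was called lower, a call lost without E13 control B or C, any E13 NRG1 library, or E14 NRG1 A or C. No member was called among 13 tested ERBB receptor and ligand genes, 14 FGF genes, 25 keratin and duct genes or 15 heat shock genes. With 1.53% and 0.735% of all genes called, lists of this size can hold none. Nothing is therefore read from these counts, nor from the interaction calls of the sterol and ribosome biogenesis lists. Erbb3 fell with NRG1 by 0.37 at E13 and by 0.78 at E14 on the log2 scale, and that difference was not called (-0.40, SE 0.11, edgeR adjusted p = 0.0789). With 1 library left out, at most 2 ERBB genes and 2 sterol genes (both without E14 control B), 1 FGF gene in each direction and 1 keratin or duct gene were called. Of 26 tested WNT genes 1 was called lower (Sp5) and 1 higher (Dkk3), and of 19 Notch, hedgehog and ectodysplasin genes 2 were called lower (Ptch1 and Jag1) and 1 higher (Dll1). Each of these 5 calls was lost in at least 2 of the fits that left out 1 library, that of Ptch1 without E13 NRG1 B or E14 NRG1 B and that of Sp5 in all of them.

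**Figure D4:**
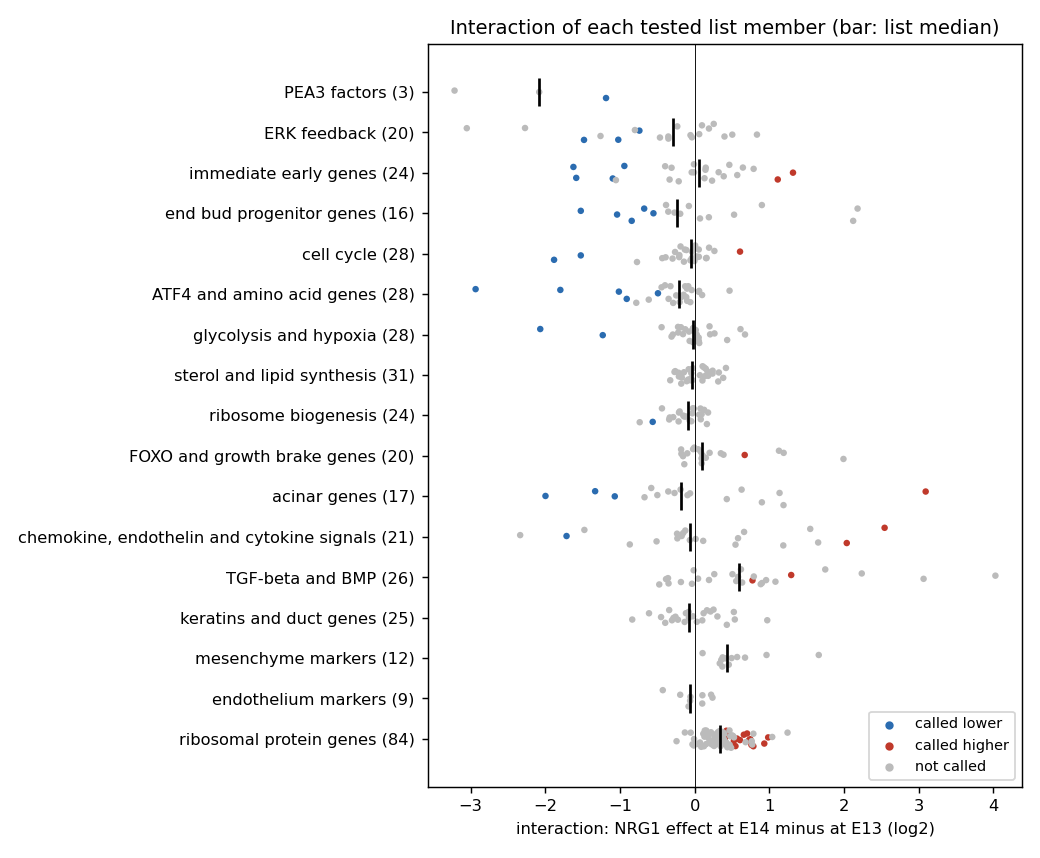
The interaction (x axis, log2) of each tested member of 17 gene lists (rows, with the number of members tested), with called lower members in blue, called higher in red, other members in grey and the list median as a bar. The ATF4 list has called members on the lower side only and the ribosomal protein list on the higher side only.

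Short transcripts made up much of the higher set. The median exonic length was 7024.5 bases for the lower genes, 1926 bases for the higher genes and 4097 bases for all tested genes. Of the 118 higher genes with a length, 42 were under 1500 bases, and 28 of these were not called for NRG1 at E13, 37 were raised by NRG1 at E14 and 35 were lower in E14 than in E13 controls. For the 76 longer higher genes these counts were 20, 29 and 49. Over all genes 20.2% were raised at E14 and 9.2% were lower in E14 controls. The interaction chose these genes, so the counts are a description. The 42 short genes include Atp5mpl, a small subunit of ATP synthase, Cops9, a subunit of the COP9 signalosome, and mt-Co2, a mitochondrially encoded subunit of cytochrome oxidase. Atp5mpl measured 66.7 to 70.2 CPM in E13 controls, 68.8 to 78.8 CPM in E13 NRG1 buds, 50.6 and 50.3 CPM in E14 controls and 81, 90.7 and 95.8 CPM in E14 NRG1 buds, so the E14 controls lay below all other libraries (interaction 0.73, SE 0.11, edgeR adjusted p = 0.00429). On a pair of lists chosen after these values had been seen, 16 of 84 ribosomal protein genes and 7 of 73 nuclear genes of respiratory chain subunits were called higher and none lower. Over all genes 0.735% were called higher. The share was 3.17% among genes under 1000 bases and 3.97% among those from 1000 to 1500 bases. The 16 became 10 without E13 control A or B, 4 without E13 NRG1 B, 6 without E13 NRG1 C or E14 NRG1 B and 43 without E14 control B. The 7 became 2 without E13 control A or B, 1 without E13 NRG1 B or C or E14 NRG1 B, 3 without E14 NRG1 A and 26 without E14 control B. The ribosomal protein genes summed to 60210 and 53410 CPM in E14 controls B and C and to 66430 to 75450 CPM in the other 9 libraries, and counts of these genes are uncertain because of near-identical pseudogenes.

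The same dependence on length ran through all genes. Among genes under 1000 bases the median log2 difference between E14 and E13 was -0.25 in controls and 0.09 in NRG1 buds, and 3.17% were called higher and none lower. Among genes of 12000 bases or more those medians were 0.06 and -0.06, and 0.379% were called higher and 4.3% lower. Relative to each gene's mean, genes under 1000 bases lay at -0.15 in E14 control B and -0.25 in E14 control C, against -0.04 to 0.14 in the other libraries. With this trend removed from each library, a step added after the data had been seen, 67 genes were called higher and 195 lower. Of the genes called without it, 179 of 248 lower and 61 of 119 higher genes remained, with 9 of the 42 higher genes under 1500 bases, 9 of the 84 ribosomal protein genes and 1 of the 73 respiratory chain genes. Of the called genes named above, mt-Co2, Klf2, Ptch1, Jag1, Dll1 and Sp5 lost their call.

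**Figure D5:**
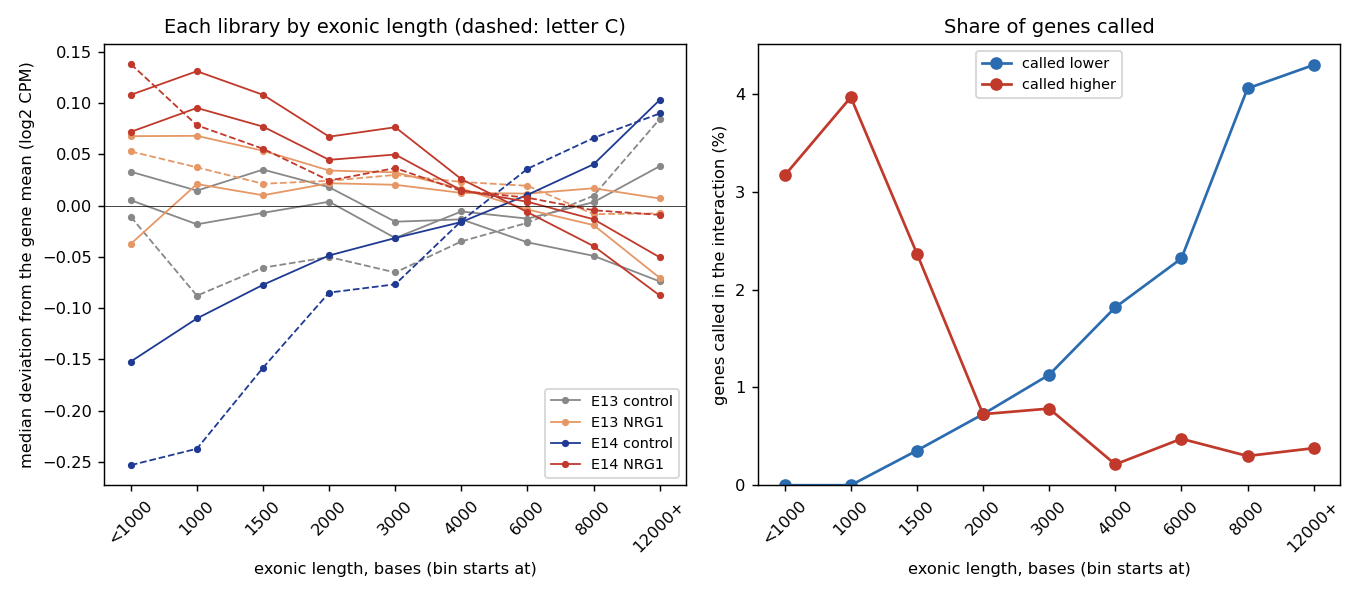
Left, the median deviation of each library from the gene means (log2 CPM, y axis) by exonic length of the gene (bases, x axis, 9 bins), with a line for each library coloured by group. Right, the percentage of genes called lower (blue) and higher (red) by the same bins; the E14 controls lie at -0.15 and -0.25 for genes under 1000 bases, where 3.17% were called higher.

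The glands of the series are separate libraries that had no part in choosing these genes. In freshly dissected wild-type glands (4 libraries at each stage), 102 of the 248 lower genes were higher at E14 than at E13 and 7 were lower, that is, 41.1% and 2.82% against 11.8% and 7.63% of all genes. Of the 119 higher genes 8 were higher and 15 lower, and the 8 became 5 without E13 gland B, C or D or E14 gland A. The 7 lower became 4 without E13 gland B or D or E14 gland B or D. Chrm1 measured 6.68, 4.13, 6.55 and 4.77 CPM in E13 glands and 11.9, 8.78, 8.09 and 8.88 CPM in E14 glands (log2 0.75, SE 0.15, edgeR adjusted p = 0.000566), and Kit and Slc12a2 also rose (log2 0.66 and 0.75). Other lower genes did not. Etv4 was not called (log2 -0.05, edgeR adjusted p = 0.869), and Vegfa and St8sia1 fell (log2 -0.34 and -0.92, edgeR adjusted p = 0.025 and 0.0167). Chrm3, of the higher set, rose in glands (log2 0.65, edgeR adjusted p = 0.0341), while its E14 control buds lay below the E13 controls. Of 9 epithelial markers, 7 were higher in E14 glands as well, Krt18 by 1.06 and Cdh1 by 0.82 on the log2 scale, and their part in the gland values was not tested.

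In E16 glands labelled Erbb3 KO, Erbb3 itself measured 35.1, 32, 73.6 and 68.6 CPM, against 89.7, 69.6, 124 and 118 CPM in the wild-type (WT) glands, so the groups overlapped and it was not called (log2 -0.94, SE 0.29, edgeR adjusted p = 0.0619). Of 245 lower genes tested there, 46 were lower in KO and 4 higher (4.2% and 2.83% of all genes), and of 114 higher genes 12 were higher and 1 lower. Sorbs2, a cytoskeletal adaptor with an interaction of -1.0, measured 111, 63.3, 81.7 and 71.4 CPM in WT and 33.5, 28.5, 48.8 and 42.2 CPM in KO glands (log2 -1.10, SE 0.21, edgeR adjusted p = 0.0265). Etv4, also of the lower set, went the other way and was higher in KO (log2 0.92, SE 0.21, edgeR adjusted p = 0.0358). Egr1 and Egr2 were above 0 and not called (log2 1.44, SE 0.46, and 1.35, SE 0.40). These counts rest on single libraries. The 46 became 27, 87, 1 and 8 without WT 1, 2, 3 and 4 and 0, 0, 20 and 8 without KO 1, 2, 3 and 4, and the 12 became 2, 46, 0 and 0 and then 0, 0, 2 and 1 in the same order. The epithelial marker Esrp1 was lower in KO (log2 -0.69) and Krt14 higher (log2 0.65), and their part in these counts was not tested.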

How the data were processed

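Salivary end bud epithelium (11 libraries), fresh E13 and E14 glands (8) and E16 Erbb3 KO and WT glands (8) are used here. The authors deposited raw counts per gene, made with fastp, STAR and featureCounts on mm10, per the submitters' processing notes. Tool versions, annotation release, strand setting and RNA selection (not given in the sources used here) leave overlapping, antisense and near-identical genes uncertain. Symbols, coordinates and exonic lengths came from GENCODE on GRCm38, and 97.8% of the 35275 identifiers had a symbol. KO genes were joined by symbol.

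Tests used edgeR 4.0.16 (R 4.3.3) with TMM, the default filter on low counts, a robust quasi-likelihood F test in 1 fit of the 4 end bud groups, and Benjamini-Hochberg adjustment over all genes tested, with calls at an adjusted p under 0.05. E14 control had only 2 libraries, so the spread was shared between groups. In a second fit the 24 gland libraries shared theirs. CPM used tested genes and TMM factors, and an SE is the log2 value divided by the root of F. Alternatives used DESeq2 1.42.0, limma 3.58.1 (voom), other filters and scalings, a non-epithelial marker covariate, replicate blocks, each library left out and, added after the data had been seen, a loess (span 0.5) of each library's log2 deviation on exonic length as an offset.

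Total counts were 16027377 to 26306020 (end buds), 13033868 to 24226709 (glands) and 8913271 to 11890488 (KO). On simulated interaction counts for 15926 genes, 28.4%, 62.7% and 87.9% of genes changed by factors of 1.5, 2 and 4 were recovered, and 3.25% of the calls were unchanged genes. Changed genes were drawn only from genes above a minimum mean count, so the recovery rates do not cover low-count genes. The simulation gave all libraries the same fitted spread. It held no length trend, no difference in mesenchyme between replicates and no wider spread of the E14 controls, so these rates need not hold for the real libraries. All end bud replicate pairs differed by more than sampling noise (lowest chi-square per gene 3.87). The 2 E14 controls differed most, at 23.8 against at most 12.1 for any other pair, so the shared spread may understate theirs. Whether replicates were separate litters or cultures is not stated, and p-values cover only the spread among these libraries, which may be technical.

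Named genes have a regular symbol and at least 2 CPM in a group. They are the 12 with the smallest p and the next 6 with the largest interaction in each direction, up to 4 called members of each gene list, and Erbb2, Erbb3, Egfr and Nrg1. Etv1, Etv5, Dusp1, Dusp6, Dusp10, Myc, Klf2, Slc7a5, Atf4, Aqp5, Id1 and Id3 lie outside this rule and were added after their values were seen. The comparison and the lists were chosen with earlier results of these data known. A few genes that the rule names are not reported here. Columns marked S and C were read as NRG1 and control. Libraries of the TORIN1 and longer culture tables were not used here.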

Additional observations from a re-analysis of the deposited data

Results flagged for a closer look

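The 62 genes given here by their log2 interaction had an NRG1 effect that differed between the titles by the test of that difference. For those that the report describes, the values were -1.19 for Etv4, -1.62 for Egr2, -1.10 for Egr1, -0.94 for Nr4a1, -1.02 for Spred2, -1.48 for Spry2, -0.74 for Spred1, -2.93 for Chac1, -1.80 for Trib3, -1.01 for Slc7a1 and -0.49 for Aars. Cell cycle and progenitor genes had -1.88 for Ccnd2, -1.52 for Ccnd1, 0.61 for Cdkn1c, -0.84 for Pax9, -0.68 for Sox9, -0.55 for Kit and -1.04 for Myb. Acinar genes had -1.07 for Slc12a2, -1.33 for Chrm1, -2.00 for Kcnn4 and 3.09 for Chrm3. Metabolic, epithelial and matrix genes had -1.23 for Vegfa, -2.07 for Pfkfb3, -1.0 for Sema6a, -1.47 for Trpv6, -1.0 for Sorbs2, -1.21 for Itga2, and -0.56 for Rrs1. Genes with higher values were Klf4 at 1.32, Pxdc1 at 2.17, Dab2 at 1.62, Ackr3 at 2.54, Edn2 at 2.04, Tgfb2 at 0.77, Tgfb3 at 1.29, Cited2 at 0.67, Atp5mpl at 0.73, mt-Co2 at 0.84 and Cops9 at 0.67, while Cxcr4 stood at -1.72.

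Of the genes not yet given by value, Sel1l3 had -0.93, and Ston2, an adaptor of endocytosis, -0.94. Fgd5, a guanine nucleotide exchange factor of CDC42, had -1.01, and Nkd2, an inhibitor of WNT signalling, -2.12. Nkd2 measured 9.51 to 14.5 CPM in E13 controls, 106 to 124 CPM in E13 NRG1 buds, 51.6 and 33 CPM in E14 controls and 94.7 to 100.2 CPM in E14 NRG1 buds. Ccdc160 had -2.50 (call lost without E13 NRG1 B) and St8sia1, a ganglioside sialyltransferase, -2.64 (call lost without E13 NRG1 B or E14 control C). Sectm1b had -2.00 and was not called for NRG1 at E13 but fell at E14, from 7.72 and 9.41 CPM to 2.79, 2.14 and 1.38 CPM (call lost without E13 NRG1 A or C or E14 NRG1 B).

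On the higher side, Filip1l had 1.94, Crispld1 1.76, Jam2, a junctional adhesion molecule, 1.82, and Lamc3, a laminin chain, 1.72 (call lost without E13 NRG1 C). Lamc3 fell with NRG1 from 3.96 to 4.56 CPM to 0.76 to 1.24 CPM at E13 and stood at 4 to 4.22 CPM with NRG1 at E14. Nexn, an actin-binding protein gene, had 1.90 (call lost without E14 NRG1 B), Cthrc1 1.57 and Lsm7, an RNA-binding protein of the spliceosome, 0.66. Tmem200a had 1.85 and Phlda2, an imprinted gene, 1.89, and both calls were lost without any of 5 or more libraries.

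The WNT and Notch genes named in the report had -5.59 for Sp5, 0.49 for Dkk3, -0.79 for Ptch1 (call lost without E13 NRG1 B or E14 NRG1 B), -0.47 for Jag1 and 0.97 for Dll1. Sp5 had 0 counts in all 3 E13 controls and 3 to 14 counts elsewhere, so its fitted value depends on the prior count and bounds nothing.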

How the results depend on the processing

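Of 64 called named genes, 39 kept their call in every alternative fit of the interaction, 43 in every fit without 1 library and 58 with the length trend removed, and no called gene changed sign. The number of higher genes (119) became 239 with DESeq2, 194 with a covariate for non-epithelial markers, 67 with the length trend removed (added after the data had been seen) and 43 to 597 when 1 library was left out. The number of lower genes (248) became 562 with DESeq2, 505 with the covariate and 97 to 487 when 1 library was left out. Both DESeq2 and the covariate fit kept nearly all calls (245 lower each, 117 and 118 higher). Where E14 control B or C was left out, the remaining single E14 control was assumed to have the spread of the other groups. The number of genes called between KO and WT glands (1054) became 2121 with no filter on low counts and 3 to 3723 when 1 library was left out. The causes were not tested, apart from what the construction of each fit shows. The other 50 of 56 counts under alternatives that kept all libraries were within 1.5 times.

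The letters A to C do not pair end bud libraries: deviations from the group means correlated at 0.18, 0.15 and -0.029 for letters A, B and C at E13 and at -0.18 and -0.12 for B and C at E14. With a replicate block within each title, 234 genes were called lower (161 of them shared) and 89 higher (65 shared). Under this block Ccnd2, Itga2, Aars, Lamc3, Nexn, St8sia1, Rrs1, Dkk3, Jag1, Sp5 and Cdkn1c lost their call. Depth limits Chrm3 (9 to 85 counts), Sp5 and the E13 control level of Chac1, and the 2 E14 controls limit every value here.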

Other observations

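Nrg1 itself, the gene of the added ligand, was not called in the interaction (0.14, SE 0.72, edgeR adjusted p = 0.949) but differed between titles. In E13 buds its level was 0.203, 0.177 and 0.317 CPM without NRG1 and 0.326, 0.572 and 0.546 CPM with it, on 3 to 12 counts. In E14 controls it measured 2.1 and 0.835 CPM and in E14 NRG1 buds 3.93, 3.16 and 2.65 CPM, on 15 to 86 counts, so every E14 library lay above every E13 library. Neuron markers, which mark a known source of NRG1, summed to 10.2 to 28.5 CPM in the E14 libraries. At E13 they summed to at most 2.14 CPM, except for 21.6 CPM in E13 NRG1 C. The mesenchyme and endothelium sums given above were also higher in every E14 library than in every E13 library. E14 control B, with more Nrg1 than C, had 10.6 against 18.7 CPM of neuron markers and 6329 against 2266 CPM of mesenchyme markers. The part of these cell types in the Nrg1 level was not tested. Egfr fell with NRG1 at both titles, by 0.80 and 0.69 on the log2 scale, with an interaction of 0.11 (SE 0.13, edgeR adjusted p = 0.741).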
